A study of Sus scrofa with 24 samples.

Results

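The small heat shock proteins of muscle are described here across fetal and adult longissimus muscle of 2 pig breeds. A gene was a member if the array annotation named it HSPB6 or HSPB8, or gave any other symbol made of HSPB and a number, or CRYAB. The rule found 8 genes with 10 probe sets, of 6765 genes that had 1 symbol and 23999 probe sets tested. The members were HSPB1, HSPB2, HSPB3, CRYAB, HSPB6, HSPB7, HSPB8 and HSPB11, and the Entrez ID of all 8 carries the same symbol in RefSeq (Sscrofa11.1). HSPB6 and CRYAB each had 2 probe sets, and the one with the higher mean over all 24 arrays represents the gene. The study hybridised RNA of longissimus dorsi from German Landrace (DL) and Pietrain (Pi) pigs to Affymetrix porcine arrays. The stages were 35, 63 and 91 days post conception (dpc) and adulthood, each with 3 RNA pools per breed (a, b and c), which makes 8 groups, and no treatment or allele is named for any group. How many animals made up a pool, their sex and the age of the adults are not stated in the labels used here, so a p-value compares a difference with the spread between pools. A free-text label calls even the embryonic pools peripubertal; breed and stage were taken from titles and characteristics. At 35 dpc the titles also have an added letter K, absent at the other stages and not explained by the labels.

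Small heat shock proteins are chaperones that work without ATP. Apart from HSPB11, a member here by its symbol alone, they share a crystallin-type domain and assemble into oligomers. They hold partly unfolded proteins until HSP70 machines refold them or pass them on for degradation. Striated muscle is rich in them, where they bind desmin, filamin, actin and titin at the Z-disc. HSPB8 acts with BAG3, HSP70 and the ubiquitin ligase STUB1 in chaperone-assisted selective autophagy of damaged Z-disc proteins. HSPB6 is a substrate of cyclic nucleotide-dependent kinases, and HSPB1 of the kinase that p38 activates. In pig muscle, primary fibres form early in fetal life, secondary fibres follow, and the fibres mature after birth.

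Values below are the deposited log2 intensities, where 1 unit is a doubling. The reading of the log base as 2 rests on their range, 1.60 to 16.10. All 24 columns hold the same set of values once sorted, so each change is read relative to the rest of the array. The background ceiling of an array, the highest of 23 control probe sets with no spiked target, lay between 2.31 and 2.69. The defining fibre markers were above it in every group (9 of 10 measured, ACTA1 not among them). Neural markers stood at a mean level of 10.38 to 10.69 in the 35 dpc pools, with 0 of 9 at background, and at most 3.76 later. A liver list reached 10.88 in 1 adult Pi pool. At 63 dpc this list stood at 8.36 to 10.49 in DL and at 3.46 to 3.54 in Pi. The hybridisation controls, bacterial and phage transcripts added in fixed amounts, averaged 10.40 to 10.64 in DL and 9.94 to 10.14 in Pi at 35 dpc, against 10.94 to 11.72 at the other stages. Pools of a group correlated at r of 0.926 to 0.992 over the probe sets, which are no independent replicates.

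HSPB6 (Entrez gene 494560), also called Hsp20, had the lowest levels at 35 dpc and climbed at every later stage in both breeds. In the 35 dpc pools a, b and c its level was 5.89, 5.86 and 5.73 in DL. In Pi it was 5.14, 4.64 and 4.34. The Pi pools were all below the DL pools, and pool c of Pi was the lowest of the 24. At 63 dpc the DL pools read 10.74, 10.58 and 10.58, and the Pi pools 11.02, 10.92 and 10.90. At 91 dpc the levels were 12.65, 12.46 and 12.60 in DL and 12.14, 12.13 and 12.32 in Pi. All Pi pools lay above the DL pools at 63 dpc and below them at 91 dpc. Neither difference was called (limma adjusted p = 0.457 and 0.266), and the second HSPB6 probe set overlapped between breeds at 91 dpc. The adult pools reached 14.16, 14.43 and 13.89 in DL and 13.10, 13.06 and 13.33 in Pi. The 4 stages did not overlap in either breed. From 35 dpc to adult the level rose by 8.33 in DL and 8.45 in Pi, 322.5-fold and 350.4-fold as intensities.

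HSPB8 (100155338), the partner of BAG3 and also called Hsp22, rose most at the first and the last step. Its 35 dpc levels were 7.42, 7.66 and 8.07 in DL and 7.58, 7.92 and 7.51 in Pi. At 63 dpc they were 10.42, 10.60 and 10.36 in DL and 10.76, 10.34 and 10.75 in Pi. The breeds overlapped at both stages, and every 63 dpc pool was above every 35 dpc pool. At 91 dpc the pools read 11.72, 11.63 and 11.43 in DL and 11.05, 11.00 and 11.38 in Pi. In adults they read 13.93, 14.77 and 14.47 in DL and 14.64, 14.65 and 14.50 in Pi. The Pi pools lay below the DL pools at 91 dpc only, and pool a of adult DL was the lowest adult pool. The rise from 35 dpc to adult was 6.68 in DL and 6.93 in Pi, or 102.2-fold and 121.6-fold.

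HSPB1 (493184), or Hsp27, which binds actin filaments, was already far above background at 35 dpc. The 35 dpc pools stood at 11.49, 11.52 and 11.56 in DL and 10.84, 10.96 and 10.94 in Pi. The 63 dpc pools stood at 13.06, 12.92 and 12.91 in DL and 13.16, 13.17 and 13.16 in Pi. Pi was below DL at the first of these stages and above it at the second, without overlap. The 63 dpc difference was not called (limma adjusted p = 0.197). At 91 dpc the levels were 13.38, 13.23 and 13.33 in DL and 13.59, 13.51 and 13.77 in Pi. The adult levels were 14.83, 14.83 and 14.80 in DL and 14.81, 14.83 and 14.89 in Pi. The 6 adult pools lay between 14.80 and 14.89, and the breeds overlapped there. Adult levels exceeded those at 35 dpc by 3.29 in DL and 3.93 in Pi, 9.80-fold and 15.2-fold.

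CRYAB (100519789) encodes alpha-B crystallin, also HSPB5, a chaperone of desmin filaments. At 35 dpc its level was 10.36, 10.58 and 10.41 in DL and 9.83, 9.96 and 10.02 in Pi. At 63 dpc it was 12.52, 12.49 and 12.46 in DL and 12.56, 12.35 and 12.61 in Pi. Pi lay wholly below DL only at the earlier of these stages. At 91 dpc the pools read 12.62, 12.41 and 12.36 in DL and 12.07, 12.11 and 12.41 in Pi, overlapping those of 63 dpc. Adult pools read 14.80, 14.95 and 14.60 in DL and 14.73, 14.51 and 14.53 in Pi. Fetal levels thus stood on 1 plateau between 63 and 91 dpc, with a rise before it and another after it. From 35 dpc to adult the gain was 4.33 in DL and 4.65 in Pi, 20.1-fold and 25.2-fold.

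**Figure D1:**
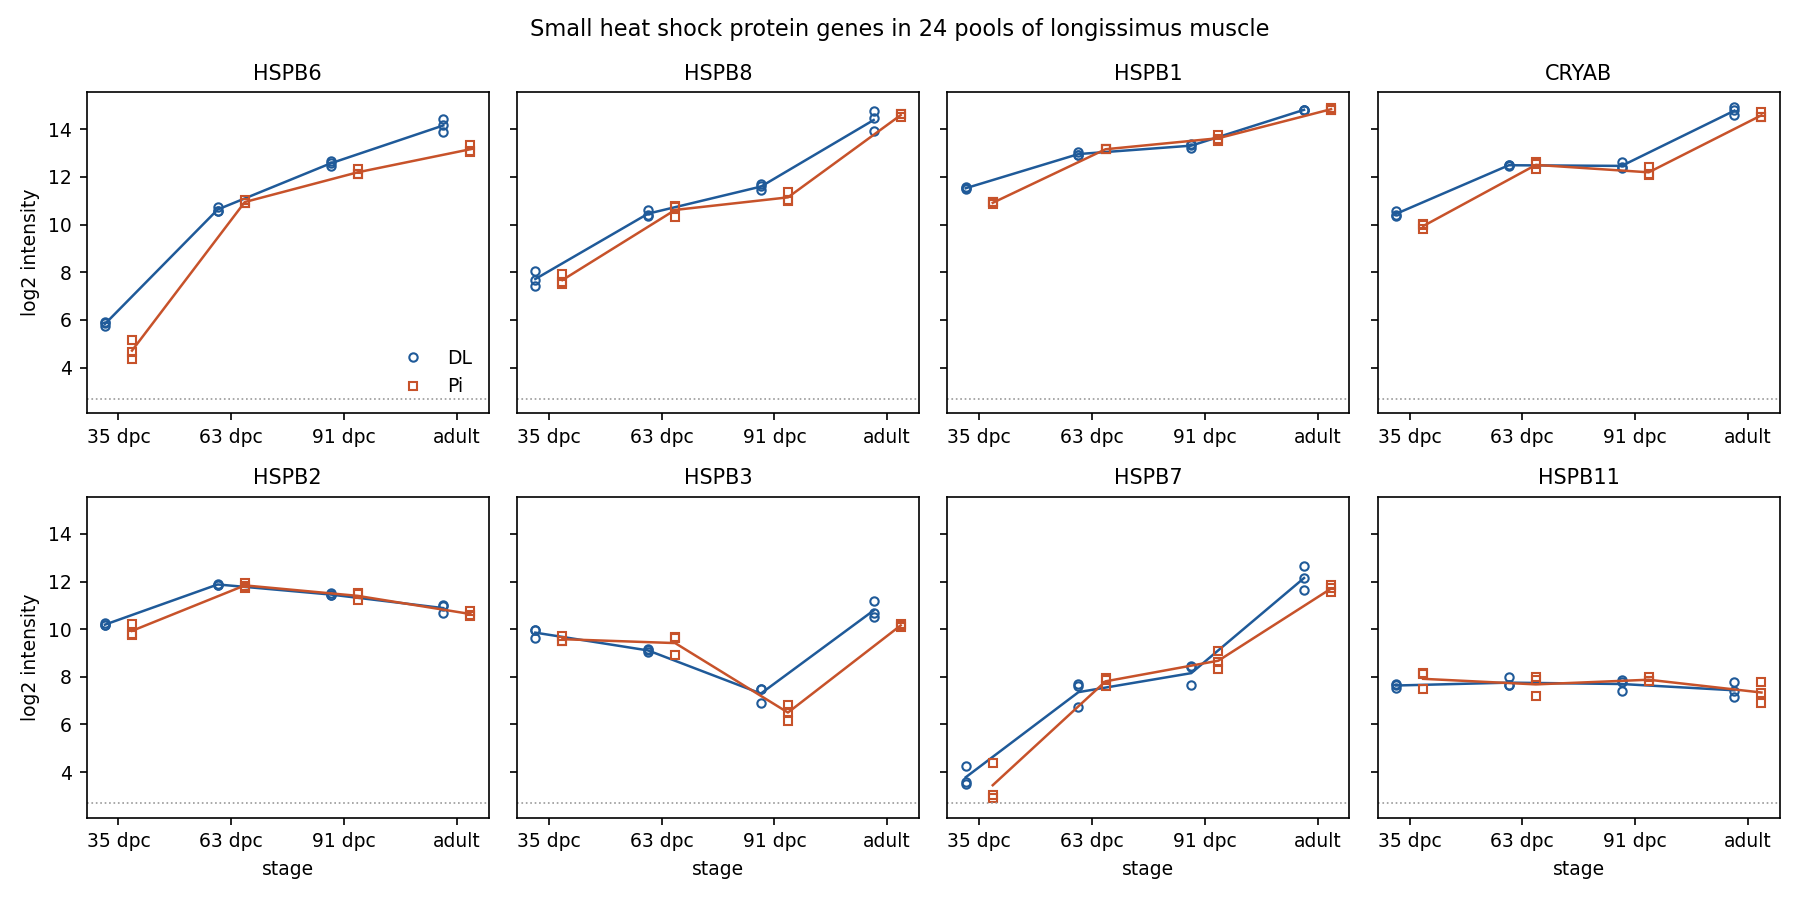
Log2 intensity of the 8 small heat shock protein genes (vertical axis) against stage (horizontal axis) in 24 pools. Circles are DL pools, squares Pi pools, lines join group means, and the dotted line is the highest background ceiling, 2.69. HSPB6, HSPB8 and HSPB7 climb through all stages, HSPB2 peaks at 63 dpc, HSPB3 dips at 91 dpc, and HSPB11 stays between 6.92 and 8.15.

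The other members fell into different courses. HSPB7 (100627988), known from heart and skeletal muscle and a binder of filamin C, ran from 2.92 to 4.37 at 35 dpc, 6.73 to 7.94 at 63 dpc, 7.64 to 9.07 at 91 dpc and 11.54 to 12.65 in adults. Its gain from 35 dpc to adult was 8.36 in DL and 8.25 in Pi, so that HSPB6, HSPB7 and HSPB8 each gained at least 6.68 in both breeds. The gain of HSPB7 starts near background, with Pi pools b and c at 35 dpc only 0.58 and 0.57 above the ceiling. HSPB2 (100520143), which binds the myotonic dystrophy kinase DMPK, ranged from 9.77 to 10.25 at 35 dpc, 11.75 to 11.94 at 63 dpc, 11.21 to 11.52 at 91 dpc and 10.56 to 11.02 in adults. It was highest at 63 dpc, and its adult level exceeded the 35 dpc level by 0.69 in DL and 0.71 in Pi. HSPB3 (100519061), which forms a complex with HSPB2 in muscle, ranged from 9.50 to 9.97 at 35 dpc, 8.93 to 9.69 at 63 dpc, 6.15 to 7.50 at 91 dpc and 10.08 to 11.17 in adults. It was lowest at 91 dpc in both breeds. HSPB11 (100621426), a subunit of the intraflagellar transport machinery, stayed between 6.92 and 8.15 in all 24 pools. As a member by symbol, HSPB11 is included in every count and median over the 8 members.

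The steps between stages asked when in development the family changed. From 35 to 63 dpc 6 of the 8 members rose and 1 fell, where 22.3% of all probe sets rose and 22% fell. The median change was 2.07 over the members and 0.00 over all probe sets. HSPB6 rose by 5.52 ± 0.11 (SE from limma; adjusted p = 1.43e-17), 4.81 in DL and 6.24 in Pi. HSPB7, with Pi pools b and c near the ceiling at 35 dpc, rose by 3.97 ± 0.26 (limma adjusted p = 6.17e-10). HSPB8 rose by 2.85 ± 0.14 (adjusted p = 8.89e-12). CRYAB, HSPB1 and HSPB2 rose by 2.31, 1.84 and 1.80, each with an SE of at most 0.08 and an adjusted p of at most 4.22e-12. HSPB3 fell by 0.46 ± 0.16 (adjusted p = 0.0228), with overlapping pools. That call was lost without 1 of DL 35 dpc pools b or c, Pi 35 dpc pool a or Pi 63 dpc pool a, with adjusted p of 0.0515 to 0.0738, and with the GAPDH 3' to 5' difference as a covariate (adjusted p = 0.0508). HSPB11 differed by -0.06 ± 0.17 (adjusted p = 0.879).

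At the step from 35 to 63 dpc 22.3% of all probe sets rose and 22% fell. Muscle fibre markers moved with this step: 8 of 9 rose, 1 fell, and the median change was 3.08. The mean level of that list went from 11.06 to 11.73 over the 35 dpc pools to 13.65 to 13.86 over the 63 dpc pools. Neural markers fell in 8 of 9, and smooth muscle and pericyte markers, another cell type known to hold HSPB6 and CRYAB, rose in 5 of 8. Their mean level was 7.81 to 8.08 at 35 dpc and 8.99 to 9.37 at 63 dpc. In these bulk samples, fewer cells of a type and less RNA per cell cannot be told apart, and the part of each marker list in the members' change was not tested.

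From 63 to 91 dpc the family split, with 4 members higher and 2 lower against a background of 8.88% of probe sets higher and 9.4% lower. The median change was 0.24 over the members and 0.00 over all probe sets. HSPB6 rose by 1.59 ± 0.11 (adjusted p = 1.16e-08) and HSPB8 by 0.83 ± 0.14 (adjusted p = 0.000295). HSPB1 rose by 0.41 ± 0.05 (adjusted p = 1.09e-05). HSPB7 rose by 0.83 ± 0.26 (adjusted p = 0.0343), but its pools overlapped and the call was lost when any 1 of 7 pools was left out (DL 63 dpc c, DL 91 dpc a or b, Pi 63 dpc a or c, Pi 91 dpc b or c), with adjusted p of 0.0546 to 0.1003. HSPB3 fell by 2.36 ± 0.16 (limma adjusted p = 4.75e-09) and HSPB2 fell by 0.43 ± 0.08 (adjusted p = 0.00114). Both genes of that protein complex were lower at 91 dpc, but they moved in opposite directions at the first and last steps. HSPB2 changed there by 1.80 and -0.67, and HSPB3 by -0.46 and 3.57. Over the 8 group means the 2 genes correlated at -0.44. CRYAB differed by -0.17 ± 0.08 (adjusted p = 0.178). With the mean of its 2 probe sets, which takes in Pi pools at or near background, CRYAB instead differed by 0.90 (limma adjusted p = 0.0348). Scaled to the hybridisation controls, which moved all probe sets by -0.15, it differed by -0.32 (adjusted p = 0.0489).

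From 91 dpc to adult 6 members rose and 1 fell, where 30.8% of all probe sets rose and 26.6% fell. The median change was 1.86 over the members and 0.06 over all probe sets. HSPB3 rose by 3.57 ± 0.16 (adjusted p = 1.01e-12), which turned its course around. HSPB7 rose by 3.51 ± 0.26 (adjusted p = 2.02e-09) and HSPB8 by 3.12 ± 0.14 (adjusted p = 1.58e-12). CRYAB rose by 2.36 ± 0.08 (adjusted p = 3.27e-14), HSPB1 by 1.36 ± 0.05 (adjusted p = 1e-13) and HSPB6 by 1.28 ± 0.11 (adjusted p = 1.53e-08). HSPB2 fell by 0.67 ± 0.08 (adjusted p = 1.87e-06). HSPB11 differed by -0.40 ± 0.17 (adjusted p = 0.0517), and passed when 1 of 5 pools was left out (DL 91 dpc c, adult DL b, Pi 35 dpc b, Pi 63 dpc a or adult Pi a), with adjusted p of 0.0125 to 0.0401. The GAPDH control has a 3' minus 5' signal that tracks RNA integrity and labelling. It lay between 0.25 and 1.31 at 91 dpc and between -0.61 and -0.39 in adults. With this signal as a covariate no call of a member ended here, while calls over all probe sets went from 13772 to 5270. Since the ranges do not overlap, that fit cannot separate the signal from the step. The part of the signal in this step was not tested otherwise.

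**Figure D2:**
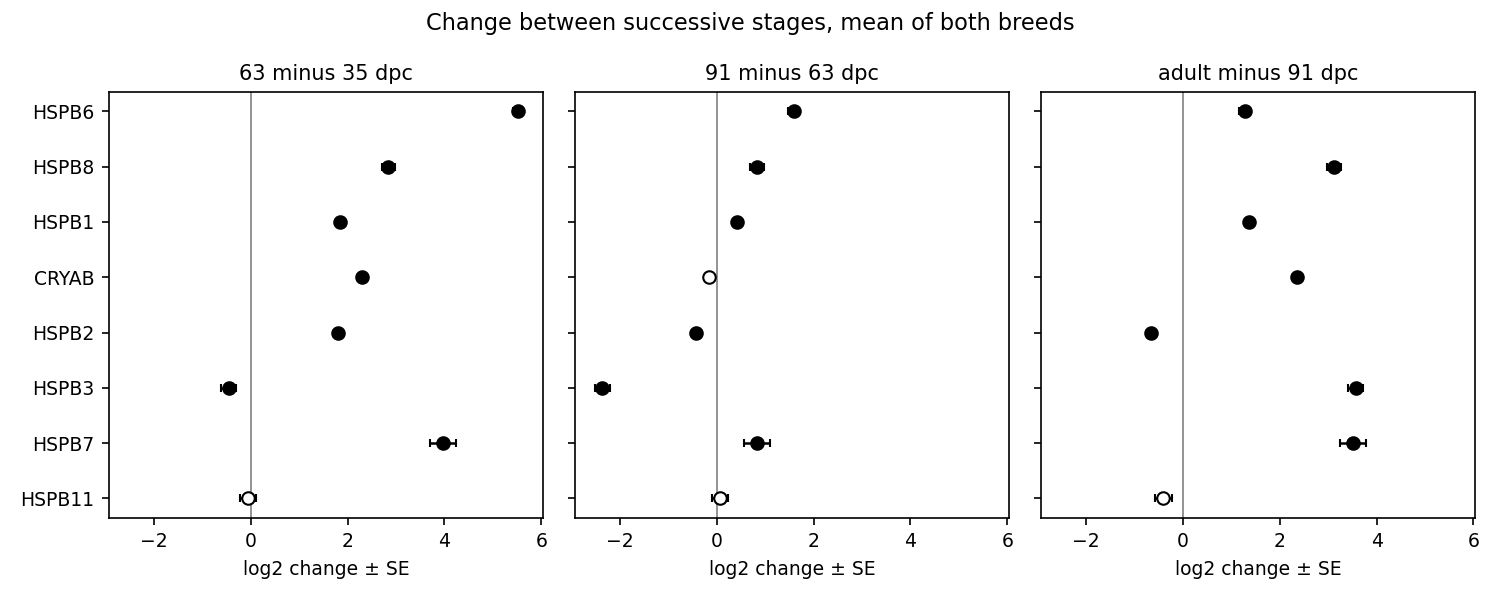
Log2 change of the 8 genes between successive stages, averaged over both breeds (horizontal axis, later minus earlier stage). Dots are limma estimates, bars 1 SE, and filled dots have an adjusted p under 0.05. Among the 8 members HSPB6 has the largest estimate at the first step (5.52), and HSPB3 has the largest fall (-2.36, from 63 to 91 dpc).

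The order of the 8 groups by mean is given as a description. Neighbours were set by their means, and the share of all probe sets without overlap was not counted. A gap between pools was no call: the HSPB6 breed pairs at 63 and 91 dpc did not pass (limma adjusted p = 0.457 and 0.266). For HSPB6 no 2 neighbouring groups overlapped: Pi at 35 dpc was lowest, followed by DL at 35 dpc, DL and then Pi at 63 dpc, Pi and then DL at 91 dpc, adult Pi and adult DL. For HSPB8 the breeds overlapped at 35 dpc, at 63 dpc and in adults, and Pi lay below DL at 91 dpc. For HSPB1 the order ran Pi, DL at 35 dpc, DL, Pi at 63 dpc and DL, Pi at 91 dpc, and only the adult groups overlapped. For CRYAB the 4 groups of 63 and 91 dpc formed a chain of overlaps between the 35 dpc groups and the overlapping adult groups. HSPB2 put both adult groups between those of 35 and 91 dpc. HSPB3 ran from Pi and DL at 91 dpc, through overlapping groups of 63 and 35 dpc, to adult Pi and adult DL. For HSPB7 the 63 and 91 dpc groups overlapped in a chain, and for HSPB11 every pair of neighbours overlapped.

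As a description over the 8 group means, which share their arrays, HSPB8 correlated at 0.991 with HSPB7, 0.983 with CRYAB and 0.980 with HSPB1. HSPB6 correlated at 0.960 with HSPB1 and 0.924 with HSPB8. HSPB6 stood further from HSPB2 (0.603) and HSPB3 (-0.15). The 2 lead genes thus had courses that differed in where the gain lay: HSPB6 made most of it before 63 dpc (5.52), while HSPB8 gained 2.85 before 63 dpc and 3.12 after 91 dpc.

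The breed comparisons asked where Pi and DL differed at the same stage. At 35 dpc 3 of the 8 members were lower in Pi and 0 were higher, where 4.03% of probe sets were called in either direction. HSPB6 was lower in Pi by 1.12, a difference of -1.12 ± 0.16 (adjusted p = 0.000448). Its second probe set, at background in the 3 DL pools, showed no lower level in Pi, and with the mean of both probe sets the difference was -0.20 (adjusted p = 0.741). HSPB1 differed by -0.61 ± 0.07 (adjusted p = 8.96e-05) and CRYAB by -0.51 ± 0.11 (adjusted p = 0.0137). The pools of these 3 genes did not overlap between breeds, and the share of all probe sets without overlap was not counted. HSPB8 differed by -0.04 ± 0.20, with a 95% interval of -0.46 to 0.37. In a fit of only the 6 arrays of this stage the adjusted p of HSPB6 was 0.0624. The call of CRYAB was lost without DL pool b (adjusted p = 0.0770) or Pi pool a (adjusted p = 0.0570), with the GAPDH covariate (difference -0.44, adjusted p = 0.126) and with the mean of its probe sets (difference -0.22, adjusted p = 0.972).

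Several array measures moved with breed at 35 dpc, where 4.03% of all probe sets were called in either direction. Fibre markers were lower in Pi in 5 of 9, with a median of -0.60 and a mean list level of 11.06 to 11.27 against 11.54 to 11.73 in DL. DES, encoding the filament that CRYAB binds, was 1 of them, at -0.60 ± 0.11 (adjusted p = 0.00468). Smooth muscle markers were at 7.81 to 7.85 in Pi and 7.94 to 8.08 in DL, with 1 of 8 lower and MYLK at background in both. The GAPDH 3' minus 5' signal was 1.08 to 1.21 in Pi and 0.52 to 0.80 in DL. The hybridisation controls were lower in Pi, and scaling the arrays to them moved every Pi minus DL difference at this stage by 0.51. HSPB1 then differed by -0.10 (adjusted p = 0.517) and CRYAB by -0.01 (adjusted p = 0.980), while all probe sets shifted with them. The part of these measures in the members' difference was not tested further.

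At 63 dpc limma called none of the 8 members, where 1.37% of probe sets were called. At an unadjusted p under 0.05 it was 1 member, and 2959 of all probe sets. Liver markers were lower in Pi here in 3 of 8, and their part in the members' values was not tested. HSPB6 differed by 0.31 ± 0.16 (adjusted p = 0.457) with pools that did not overlap, and HSPB8 by 0.16 with a 95% interval of -0.26 to 0.57. At 91 dpc HSPB1 was higher in Pi by 0.31 ± 0.07 (adjusted p = 0.0233), 1 of 8 members where 2.72% of probe sets were called. That call was lost in a fit of only the 91 dpc arrays (adjusted p = 0.273), with the GAPDH covariate (0.0816), without DL pool b (0.106) and without Pi pool c (0.0917). HSPB3 differed by -0.80 ± 0.22 (adjusted p = 0.0617), and passed without 1 of DL 91 dpc b, adult DL b, Pi 63 dpc a or Pi 91 dpc c (adjusted p of 0.0333 to 0.0474) and with array weights (0.0372). HSPB8 differed by -0.45 (adjusted p = 0.292; 95% interval -0.87 to -0.03). HSPB6 differed by -0.37 (adjusted p = 0.266). Slow fibre markers were lower in Pi at this stage in 4 of 9.

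In adults 1 of 8 members was called, where 6.33% of probe sets were. HSPB6 was lower in Pi, at -0.998 ± 0.16 (adjusted p = 0.000974), with no overlap of pools. The second HSPB6 probe set gave -1.20 ± 0.30 (adjusted p = 0.0234). With array weights, which give the adult arrays 0.23 to 0.58 for their larger spread, the difference was -1.04 with an adjusted p of 0.0763. In a fit of only the adult arrays the adjusted p was 0.198. HSPB8 differed by 0.21 with a 95% interval of -0.21 to 0.62, HSPB1 by 0.03 (adjusted p = 0.936) and CRYAB by -0.19 (adjusted p = 0.363). DES, the filament gene, was lower in adult Pi, with a difference of -0.68 ± 0.11 (limma adjusted p = 0.00128). It is 1 of 9 measured skeletal muscle fibre markers, of which the other 8 were not called (list median -0.01). Smooth muscle markers were at 8.46 to 8.93 in DL and 8.61 to 9.09 in Pi, with 0 of 8 called. Other marker lists and the GAPDH control separated the adult pools by breed. The mean level of slow fibre markers was 13.96 to 14.36 in DL and 13.47 to 13.68 in Pi, with 2 of 9 lower in Pi. Endothelial markers were at 6.63 to 7.02 in DL and 7.22 to 7.45 in Pi (1 of 11 higher), with KDR at background in both. Adipocyte markers were at 5.88 to 6.73 in DL and 7.16 to 7.52 in Pi (1 of 5 higher), with LEP at background in Pi. The GAPDH 3' minus 5' signal was -0.46 to -0.39 in DL and -0.61 to -0.55 in Pi. The part of these lists in the difference of HSPB6 was not tested.

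**Figure D3:**
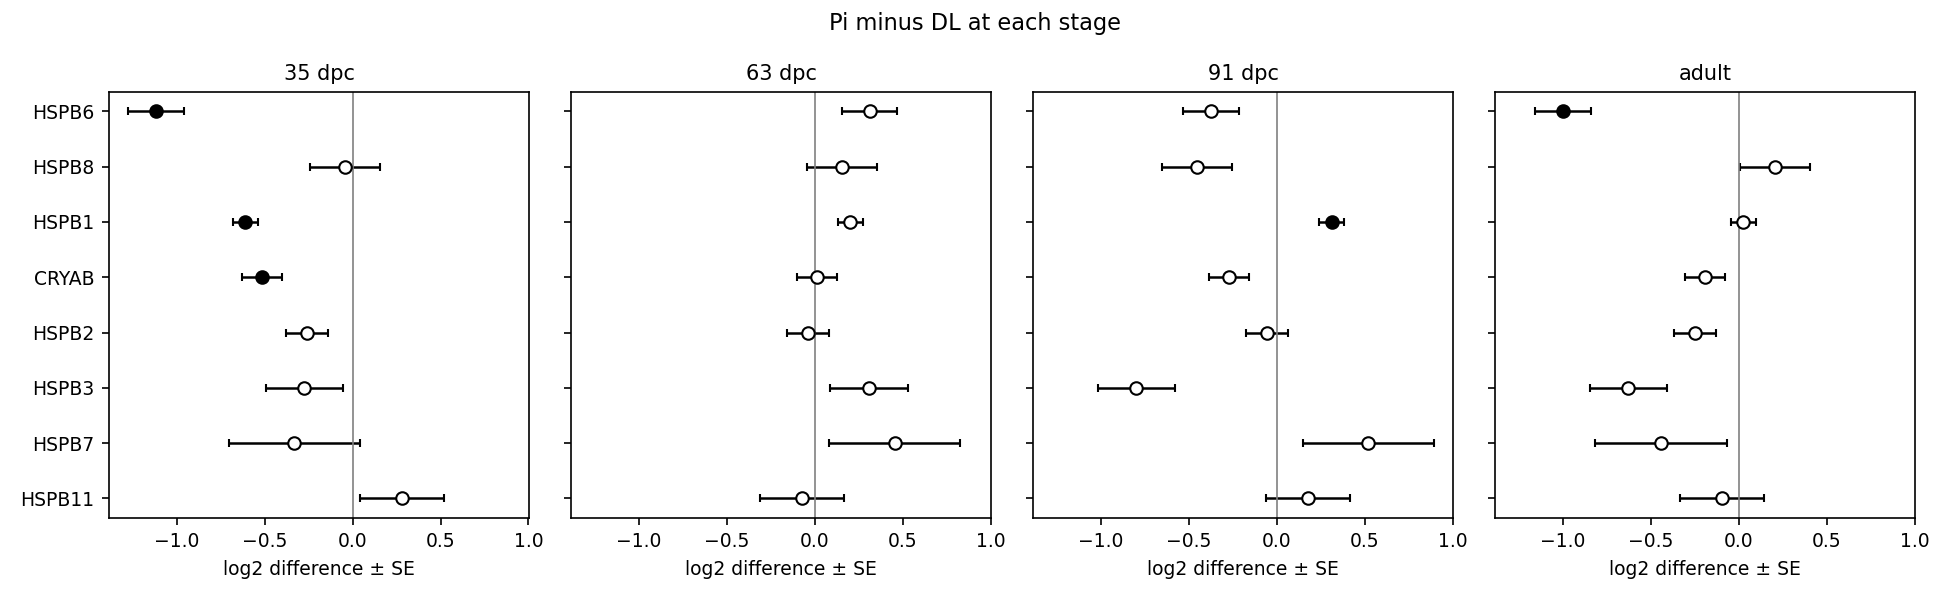
Pi minus DL log2 difference of the 8 genes at each of the 4 stages (horizontal axis). Dots are limma estimates, bars 1 SE, and filled dots have an adjusted p under 0.05. The filled dots are HSPB6, HSPB1 and CRYAB at 35 dpc, HSPB1 at 91 dpc and HSPB6 in adults.

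The interaction terms asked whether a step differed between the breeds. For the step from 35 to 63 dpc 2 of 8 members were called, both with the larger rise in Pi, where 3.3% of probe sets were called. HSPB6 rose by 1.43 ± 0.22 more in Pi than in DL (adjusted p = 0.00163). With the mean of its probe sets, which takes in the pools at background, the term was 0.62 (adjusted p = 0.181). HSPB1 rose by 0.81 ± 0.10 more in Pi (adjusted p = 0.000333), 1.44 in DL and 2.25 in Pi. These terms share the 35 dpc arrays with the breed comparison at that stage. The term for CRYAB was 0.53 ± 0.16 (adjusted p = 0.0846; 0.0212 with array weights and 0.0378 with only the groups compared), and 5 of 9 fibre markers had a called term in the same direction. Scaled to the hybridisation controls, the term of HSPB1 was 0.18 (adjusted p = 0.437).

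For the later steps limma called none of the members. From 63 to 91 dpc 0.0917% of probe sets were called, with 3 members and 2049 probe sets at an unadjusted p under 0.05. The members' terms there included -1.11 ± 0.31 for HSPB3 (adjusted p = 0.199) and -0.69 for HSPB6 (adjusted p = 0.284). From 91 dpc to adult 2.66% of probe sets were called, with 3 members and 3720 probe sets at an unadjusted p under 0.05.

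The second probe sets showed where the reading of a gene depends on its probes. For HSPB6, the dimmer probe set was at background in all 3 DL pools and in pool b of Pi at 35 dpc, with the other Pi pools at 3.12 and 3.42. Later its pools ran from 8.83 to 9.65 at 63 dpc, 10.18 to 11.48 at 91 dpc and 11.08 to 12.76 in adults. It rose at each step, with an adjusted p of at most 0.000519. The later steps were 1.58 ± 0.21 and 1.01 ± 0.21, and no size is given for the first, which starts from pools at background. Its group means correlated at 0.988 with those of the brighter one. At 35 dpc it gave no lower level in Pi: the difference was 0.73 and was not called (adjusted p = 0.25). Since Pi pool b was at background too, no fold is given. With the DL pools at background, no size or sign of its interaction term for the first step is read.

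For CRYAB, the dimmer probe set was at background in all 6 pools of 35 dpc and in Pi pool a at 63 dpc. The DL pools then read 5.91, 5.92 and 3.40 at 63 dpc and 8.22, 7.36 and 4.90 at 91 dpc. The Pi pools read 2.30, 2.61 and 2.42 at 63 dpc and 2.84, 5.42 and 5.69 at 91 dpc. Adult pools of both breeds ran from 7.87 to 10.02. Averaged over breeds the first step passed (adjusted p = 0.0470), but in Pi the pools of 63 dpc, at 2.30 to 2.61, overlapped those of 35 dpc, and no size is given. From 63 to 91 dpc the probe set passed as higher (limma adjusted p = 0.0234), and it rose by 3.43 ± 0.59 to the adult (adjusted p = 6.21e-05). The Pi pools of 63 dpc lay at or near the ceiling, and the DL pools of 63 and 91 dpc overlapped. No size is therefore given for the step from 63 to 91 dpc. Whether the probe set shared the plateau of the brighter one cannot be read. The breed difference at 63 dpc missed the threshold (limma adjusted p = 0.139), and no size is given for it either. Its name carries the same cluster number as that of the HSPB2 probe set, and CRYAB and HSPB2 overlap in the RefSeq annotation. Which of these genes it reads is therefore uncertain, and the same holds for the HSPB2 values.

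**Figure D4:**
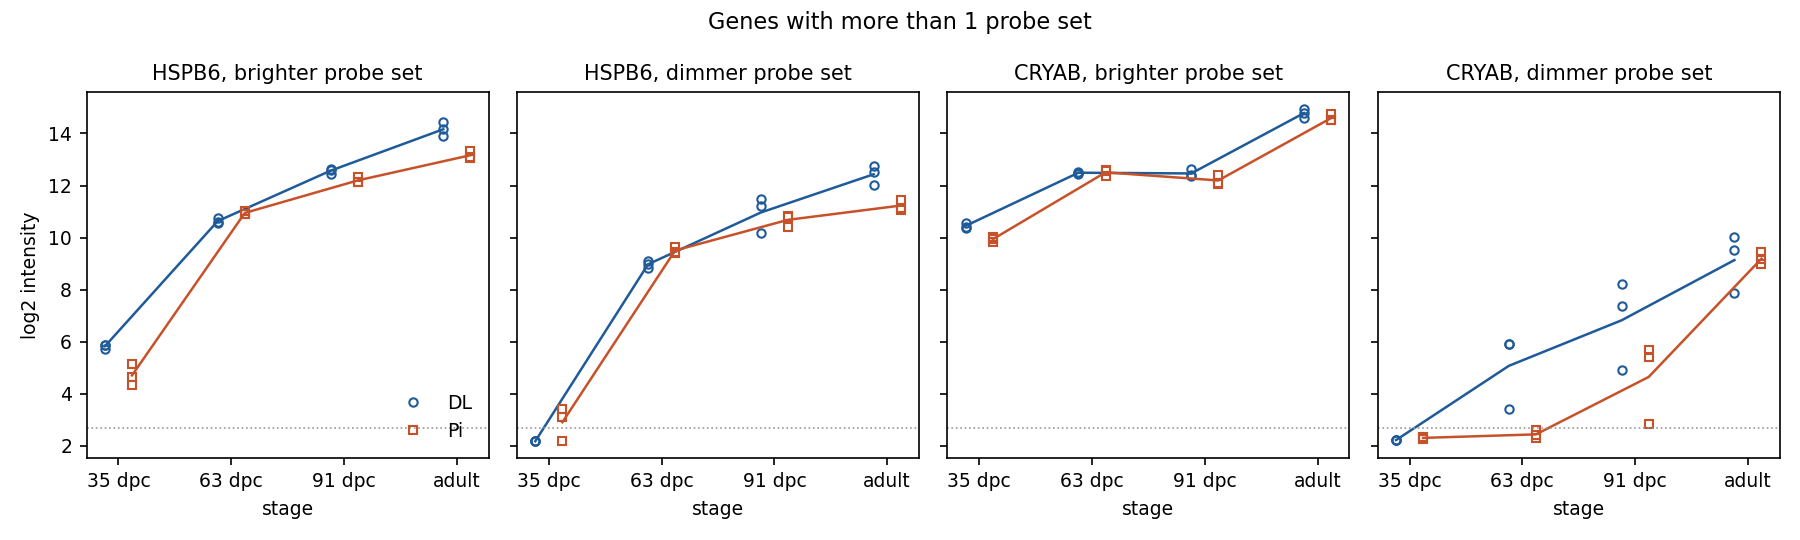
Log2 intensity (vertical axis) by stage (horizontal axis) for both probe sets of HSPB6 and of CRYAB. Circles are DL pools, squares Pi pools, lines join group means, and the dotted line is the highest background ceiling, 2.69. The dimmer HSPB6 probe set lies at background in all DL pools at 35 dpc, and the dimmer CRYAB probe set in all 6 pools at 35 dpc.

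The genes most like HSPB6 and HSPB8 were taken by Pearson correlation of the 8 group means among 5178 candidate genes, as a description. Nearest to HSPB6 were RYR1, the calcium release channel of skeletal muscle (0.997), DNASE1L1 (0.996), DTNBP1 (0.995), the elongation factor gene TCEA3 (0.995) and RAMP1, a receptor accessory protein gene (0.994). RYR1 levels ran from 8.09 to 9.08 at 35 dpc and from 14.04 to 14.69 in adults. Nearest to HSPB8 were TNFRSF12A, the TWEAK receptor gene (0.999), GMPR (0.997), the Krebs cycle enzyme gene OGDH (0.997), C7H6orf106 (0.996) and the Xin repeat gene XIRP1 (0.996). TNFRSF12A ran from 6.33 to 6.85 at 35 dpc, 8.58 to 9.62 at 63 dpc, 9.28 to 10.48 at 91 dpc and 12.16 to 12.78 in adults. Its smallest step, as for HSPB8, was between 63 and 91 dpc, a likeness that the choice by correlation favours.

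Over all probe sets 22.3% rose and 22% fell at the first step, 8.88% and 9.4% at the second, 30.8% and 26.6% at the last. The partners of HSPB8 in chaperone-assisted selective autophagy were measured for 14 of 17 listed genes. From 35 to 63 dpc 7 rose and 6 fell (median 0.40), from 63 to 91 dpc 3 rose and 0 fell (median 0.06), and from 91 dpc to adult 9 rose and 2 fell (median 0.77). BAG3, the co-chaperone that binds HSPB8 and HSP70, rose at every step. Its 6 pools ran from 7.32 to 8.14 (median 7.81) at 35 dpc, 9.28 to 9.59 (9.43) at 63 dpc, 9.98 to 10.65 (10.22) at 91 dpc and 12.70 to 13.61 (12.93) in adults, and no stages overlapped. The steps of BAG3 were 1.65 ± 0.13 (adjusted p = 8.06e-09), 0.85 ± 0.13 (adjusted p = 0.00013) and 2.73 ± 0.13 (adjusted p = 4.56e-12). SQSTM1, the autophagy receptor p62, rose by 1.01 ± 0.08 from 63 to 91 dpc (adjusted p = 9.39e-08) and by 2.49 ± 0.08 from 91 dpc to adult (adjusted p = 2.63e-14). VPS18, for a subunit of the vacuole fusion machinery, rose by 1.19 ± 0.31 at the first step (adjusted p = 0.00435). FLNC, the filamin client of this route, had no probe set with that symbol.

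Among heat shock factors, HSP70, HSP40 and HSP90 genes and their co-chaperones, 36 of 46 were measured. Their course differed in sign from the members' at the first step: 8 rose and 23 fell, with a median of -0.63. From 63 to 91 dpc 3 rose and 8 fell (median -0.15), and from 91 dpc to adult 18 rose and 8 fell (median 0.34). Across all probe sets 22.3% rose and 22% fell at the first step, 8.88% and 9.4% at the second, 30.8% and 26.6% at the last. HSPA12A fell by 3.37 ± 0.34 (adjusted p = 1.83e-07) and HSPH1, an HSP110 co-chaperone, fell by 2.33 ± 0.21 (adjusted p = 3.36e-08) at the first step. HSF1, the heat shock transcription factor, rose by 0.72 ± 0.20 at the first step (adjusted p = 0.00623), differed by 0.00 at the second and rose by 2.37 ± 0.20 at the last (adjusted p = 1.04e-08). FKBP5, an HSP90 co-chaperone that glucocorticoids induce, fell by 1.55 ± 0.24 from 63 to 91 dpc (adjusted p = 0.000115) and rose by 4.69 ± 0.24 to the adult (adjusted p = 8.49e-12). DNAJB4 rose by 1.17 from 63 to 91 dpc (adjusted p = 0.0137), and HSPA2 rose by 3.13 ± 0.47 to the adult (adjusted p = 1.42e-05).

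Among all probe sets 22.3% rose and 22% fell at the first step, 8.88% and 9.4% at the second, 30.8% and 26.6% at the last. Of the filament and Z-disc partners 19 of 24 were measured. They rose in 14 and fell in 1 at the first step (median 1.64), rose in 9 and fell in 2 at the second (0.19), and rose in 12 and fell in 2 at the last (0.75). DES rose by 3.08 ± 0.08 (adjusted p = 5.55e-16) and 0.39 ± 0.08 (adjusted p = 0.00153) at the fetal steps, and differed by 0.01 at the last (adjusted p = 0.949), where CRYAB rose by 2.36. XIRP1 rose by 5.41 ± 0.21 at the first step (adjusted p = 3.5e-13) and by 5.07 ± 0.21 at the last (adjusted p = 6.42e-13). MYOZ1, a calcineurin-binding Z-disc protein gene, rose by 5.12 ± 0.07 at the first step (adjusted p = 2.03e-20). TMOD4, which caps thin filaments, rose by 3.69 ± 0.20 (adjusted p = 3.73e-10) and PDLIM3 by 1.86 ± 0.12 (adjusted p = 3.84e-09) from 63 to 91 dpc. PDLIM3 then rose by 3.30 ± 0.12 to the adult (adjusted p = 8.12e-14).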

How the data were processed

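RNA of longissimus dorsi was measured on 24 Affymetrix porcine arrays, 3 pools in each of 8 groups taken from titles and characteristics. Each probe set has 1 deposited log2 intensity for each array, and the authors had quantile-normalised them before deposit, as the identical sorted columns show. GCOS 1.1.1 is named per the submitters' processing notes, and no source used here gives the summary and background methods. Of 24123 probe sets, 124 controls were left out. Gene symbols came from the array annotation, with 10069 probe sets carrying 1 symbol, 198 several and 13732 none.

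A model with 1 mean per group was fitted to all arrays with limma 3.58.1 in R 4.3.3 (16 residual and 1.3131 prior degrees of freedom), and 10 two-sided comparisons were taken from it. Adjusted p-values are Benjamini-Hochberg values over 23999 probe sets, with a threshold of 0.05, and "rose" and "fell" are used for changes that passed. The fit was tested on simulated data. No batch or date is named in the sources used here. Alternatives were a filter on dim probe sets, a replicate block of the pool letter, a trended robust prior, the mean of a gene's probe sets, only the groups compared, scaling to hybridisation controls, array weights, leaving out each pool and, chosen after seeing the data, the GAPDH 3' to 5' difference as a covariate. For a probe set at or below the ceiling on all arrays of 1 side, no fold is given.

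The members and the gene lists, written from textbook knowledge, were chosen with earlier results of these data known. Named besides the members are BAG3, HSF1, DES and FLNC, the 2 genes of each partner list with the largest absolute change at each step, and the 5 genes nearest to HSPB6 and to HSPB8 in pattern, which had to range over at least 1 log2 unit and exceed the ceiling in at least 1 group. The pool letters did not pair the arrays: over 84 pairs of same-lettered pools the deviations from group means correlated at -0.0775 to 0.0912. Figures were drawn with matplotlib 3.10.9.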

Additional observations from a re-analysis of the deposited data

Results flagged for a closer look

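HSPB6 and HSPB1 differed between breeds in the size of their step from 35 to 63 dpc, by a test of the difference itself, the limma interaction term. For HSPB6 the step was larger in Pi by 1.43 ± 0.22 on the log2 scale (adjusted p = 0.00163), with 4.81 in DL and 6.24 in Pi. The second HSPB6 probe set was at background in all 3 DL pools at 35 dpc and gives no value for this term; with the mean of both probe sets the term was 0.62 (adjusted p = 0.181). For HSPB1 the step was larger in Pi by 0.81 ± 0.10 (adjusted p = 0.000333), with 1.44 in DL and 2.25 in Pi. Scaled to the hybridisation controls, the HSPB1 term was 0.18 (adjusted p = 0.437). At 35 dpc the hybridisation controls and the GAPDH 3' minus 5' signal also differed between the breeds, and their part in these terms was not tested beyond the alternatives below. No outlier test was run on the groups of 3 pools. Both terms kept their call with each of the 24 pools left out. The highest limma adjusted p was then 0.00569 for HSPB6 and 0.00132 for HSPB1.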

How the results depend on the processing

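Of 27 called results of the members, 18 kept direction and call in all 8 planned and added alternatives and with each of the 24 pools left out. All 18 are stage steps, of 20 called; the others are HSPB3 from 35 to 63 dpc and HSPB7 from 63 to 91 dpc. None of the 7 called breed differences and interactions kept its call throughout. The replicate block of the pool letter changed no call of a member, and under it 10578 probe sets were called from 35 to 63 dpc against 10611 without it. The trended robust prior changed none either.

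Scaling to the hybridisation controls adds the same amount to every probe set of a comparison: -0.81, -0.15 and -0.20 at the 3 steps, 0.51, -0.12, -0.32 and -0.21 between breeds at 35, 63 and 91 dpc and in adults, and -0.63, -0.20 and 0.11 for the 3 interactions. Members called lower became 2 at the first step and 2 at the last. In the breed comparisons 1 was higher and 1 lower at 35 dpc, 0 higher and 4 lower at 91 dpc, and 2 lower in adults. For the first interaction 1 was called. HSPB1 lost its calls at 35 dpc (-0.10, adjusted p = 0.517) and in the first interaction (0.18, adjusted p = 0.437). CRYAB lost its call at 35 dpc (-0.01, adjusted p = 0.980). HSPB6 (-0.70, adjusted p = 0.0153), HSPB8 (-0.77, adjusted p = 0.0321), HSPB3 (-1.12, adjusted p = 0.00398) and CRYAB (-0.59, adjusted p = 0.0254) gained a call at 91 dpc, CRYAB gained one from 63 to 91 dpc (-0.32, adjusted p = 0.0489), and HSPB7 lost its call from 63 to 91 dpc (0.68, adjusted p = 0.0869). Between breeds, signs turned at 35 dpc for HSPB8 (0.47), HSPB2 (0.25), HSPB3 (0.23) and HSPB7 (0.18), at 63 dpc for CRYAB (-0.11), at 91 dpc for HSPB1 (-0.0092, adjusted p = 0.966) and HSPB11 (-0.14), and in adults for HSPB8 (-0.0073) and HSPB1 (-0.19). For the first interaction they turned for HSPB8 (-0.43), CRYAB (-0.10), HSPB2 (-0.41) and HSPB3 (-0.046), for the second for HSPB1 (-0.091) and HSPB7 (-0.13), and for HSPB11 from 63 to 91 dpc (-0.078). Higher and lower calls of all probe sets became 2096 and 15567 at the first step (5340 and 5271 as deposited), 1400 and 3113 at the second (2132 and 2257), 5573 and 8388 at the last (7394 and 6378), 8259 and 164 between breeds at 35 dpc (387 and 579), 47 and 165 at 63 dpc (161 and 168), 156 and 2394 at 91 dpc (323 and 330), 375 and 1537 in adults (694 and 825), and 148 and 6917, 5 and 25, and 225 and 153 for the interactions (476 and 317, 8 and 14, 285 and 353).

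With the mean of a gene's probe sets, HSPB6 lost its call at 35 dpc (-0.20) and in the first interaction (0.62), and CRYAB at 35 dpc (-0.22, adjusted p = 0.972), leaving 1 member lower and 1 called. CRYAB turned to 0.90 from 63 to 91 dpc, -1.31 between breeds at 63 dpc, -1.09 in the first interaction and 0.086 in the second. These means take in pools of its dimmer probe set at or near background. Members called lower were 2 to the adult and 1 in Pi at 91 dpc. This setting tests fewer features, and the share called over all of them was not counted. With only the groups compared, HSPB6 lost its call at 35 dpc (-1.12, adjusted p = 0.0624) and in adults (-0.998, adjusted p = 0.198), and the called members were 0 at 91 dpc and 0 in adults; this fit has fewer arrays, and 11 probe sets were called at 63 dpc, 16 at 91 dpc, 21 in adults, and 1395, 7 and 80 for the interactions, against 329, 653, 1519, 793, 22 and 638. With array weights HSPB6 lost its call in adults (-1.04), where 0 members were lower, and 1 was lower at 91 dpc. HSPB2 gained a call at 35 dpc (-0.28, adjusted p = 0.0401), which made 4 members lower there. HSPB11 at 63 dpc (0.016) and the second interaction of HSPB2 (0.022) and HSPB7 (-0.12) turned. Probe sets called were then 3156, 1000, 1285 and 242 between breeds and 2329, 113 and 174 for the interactions. With the dim filter 2 members were lower to the adult and 0 higher at 91 dpc (HSPB1 limma adjusted p = 0.0981). Of 21061 probe sets 6394 were then lower to the adult and 277 higher in Pi at 91 dpc. With the GAPDH covariate 0 members were lower at the first step and 0 higher at 91 dpc. HSPB8 at 35 dpc (0.18), HSPB2 at 91 dpc (0.035), the second interaction of HSPB2 (0.055) and the last of CRYAB (-0.020) turned. Called probe sets were 10410 at the first step, 5270 to the adult, 280 at 91 dpc, and 44 and 324 for the later interactions. The causes were not tested.

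Leaving out single pools, the members called lower ranged from 0 to 1 at the first step, 1 to 2 to the adult and 0 to 1 in Pi at 91 dpc, and those higher in Pi at 91 dpc from 0 to 1. Over all probe sets the calls in either direction ranged from 9942 to 10943 at the first step and from 13164 to 13965 to the adult. HSPB8 between breeds ranged from -0.19 to 0.13 at 35 dpc and from -0.022 to 0.40 in adults. The uncalled changes that turned were HSPB11 from 35 to 63 dpc (-0.16 to 0.062), from 63 to 91 dpc (-0.049 to 0.14), between breeds at 63 dpc (-0.22 to 0.16) and in adults (-0.32 to 0.12), CRYAB at 63 dpc (-0.036 to 0.091) and in the last interaction (-0.015 to 0.18), HSPB2 at 63 dpc (-0.089 to 0.0066), at 91 dpc (-0.11 to 0.041) and in the second interaction (-0.069 to 0.080), HSPB7 in the second interaction (-0.19 to 0.38) and HSPB3 in the last (-0.0050 to 0.37). Probe sets called between breeds ranged from 581 to 1032 at 35 dpc, 163 to 464 at 63 dpc, 248 to 1257 at 91 dpc, 466 to 894 for the first interaction, 9 to 115 for the second and 353 to 945 for the last. Low signal limits the 2 dimmer probe sets, at or near the ceiling at 35 dpc. It also limits HSPB7, whose Pi pools b and c stood 0.58 and 0.57 above the ceiling at 35 dpc. Each breed difference rests on 3 pools against 3.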

Other observations

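Of all probe sets 22.3% rose and 22% fell at the first step, 8.88% and 9.4% at the second, 30.8% and 26.6% at the last. Kinases and binding partners of HSPB1 and HSPB6 were measured for 15 of 18 listed genes. From 35 to 63 dpc 6 rose and 7 fell (median -0.05), from 63 to 91 dpc 0 rose and 4 fell (median -0.07), and from 91 dpc to adult 4 rose and 6 fell (median -0.04). DMPK, the kinase that HSPB2 binds, rose by 2.96 ± 0.08 at the first step (adjusted p = 1.16e-15), where HSPB2 rose by 1.80. PRKACB, a catalytic subunit of protein kinase A, fell by 2.05 ± 0.20 at the same step (adjusted p = 1.46e-07). YWHAZ, a 14-3-3 protein gene, fell by 1.38 ± 0.25 (adjusted p = 0.000525) and the phosphatase gene PPP1CA fell by 0.83 ± 0.27 (adjusted p = 0.0429) from 63 to 91 dpc. YWHAQ, another 14-3-3 gene, fell by 2.60 ± 0.07 (adjusted p = 1.84e-15) and CFL1, the gene of non-muscle cofilin, fell by 1.60 ± 0.07 (adjusted p = 9.54e-13) from 91 dpc to adult.

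Between breeds 4.03% of all probe sets were called at 35 dpc, 1.37% at 63 dpc, 2.72% at 91 dpc and 6.33% in adults. Of 14 autophagy partners 0 were called at 35, 63 and 91 dpc and 1 in adults. Of 19 filament and Z-disc partners 1 was lower in Pi at 35 dpc, 0 were called at 63 dpc and 1 was lower at 91 dpc. In adults 5 of them were lower, 1 was higher and 13 were not called, with a median of 0.0005. Of 36 heat shock factors and larger chaperones 2 were higher and 1 lower at 35 dpc, and 1 was called at each other stage. BAG3 differed by -0.32 at 35 dpc (adjusted p = 0.545) and -0.48 at 91 dpc (adjusted p = 0.214).

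In all probe sets 22.3% rose and 22% fell at the first step, 8.88% and 9.4% at the second, 30.8% and 26.6% at the last. The marker lists varied by stage as follows. Fast fibre markers rose in 7 of 7 at the first step and slow fibre markers in 8 of 9. From 63 to 91 dpc, where HSPB2 and HSPB3 fell, slow fibre markers fell in 5 of 9 and fast ones rose in 5 of 7. Slow markers then rose in 8 of 9 to the adult. Endothelial markers rose in 8 of 11 and 10 of 11 at the fetal steps and fell in 7 of 11 to the adult. Adipocyte markers rose in 4 of 5 from 63 to 91 dpc, immune markers in 4 of 8 to the adult, and erythroid markers fell in 3 of 4 to the adult. Smooth muscle and pericyte markers rose in 2 and fell in 3 of 8 from 63 to 91 dpc, and rose in 1 and fell in 4 to the adult. At 63 dpc the liver list ran from 8.36 to 10.49 over the DL pools and from 3.46 to 3.54 over the Pi pools. The part of these lists in the members' levels was not tested.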
